A study of Mus musculus with 4 samples.

Results

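The genes described here are 5 STAT transcription factor genes (Stat3, Stat4, Stat5a, Stat5b and Stat6) and 4 genes of the SOCS family of cytokine signalling inhibitors (Socs1, Socs2, Socs3 and Cish). They were taken as every probe set that the platform annotation assigns to these 9 symbols, which gave 22 of the 45037 probe sets that are not array controls. The samples were 4 single-colour arrays of total RNA from CD4+Foxp3+ regulatory T cells (Treg cells) of the spleen of C57BL/6 mice. Of these arrays, 2 are titled wild-type and 2 Foxo1/3-deficient, and the titles join 1 array of each genotype into pair 1 and pair 2. The genotype field of the deficient samples reads Foxo1-deficient, without Foxo3, and the titles were followed. No label used here gives the age, the treatment, the Cre driver or other alleles, whether animals were pooled, or whether replicate arrays stand for different animals. If they do not, the p-values measure only the spread between these arrays.

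The label of the deficient arrays was checked first on the targeted genes, each read from its brightest probe set alone. Other probe sets of Foxo1 and Foxo3 were not part of this check. The Foxo1 set carries the Affymetrix suffix s, and whether it also matches other transcripts was not tested. Foxo1 read 2383 and 1254 on the wild-type arrays of pairs 1 and 2 and 6949 and 6697 on the deficient ones, so it was higher, not lower, where the label says it is missing (log2 1.97 ± 0.30, limma adjusted p = 0.0280). The call was lost without the filter on dim signals (0.125), without the intensity trend (0.113) and without labelled-deficient replicate 1 (0.05002). Foxo3 read 1876 and 2635 against 1424 and 1308 (log2 -0.70 ± 0.25, limma adjusted p = 0.342). The median signal of the arrays ran from 72.0 to 83.4, and log2 values of any 2 arrays correlated at 0.960 to 0.972 across probe sets. The labels do not place the deleted part of either gene, and probe sets outside that part would not show the deletion. Why Foxo1 read higher was not tested. Nor can these values exclude that the labels were exchanged, which would turn every direction below. Every direction below is therefore that of the arrays as labelled, written as labelled-deficient against wild-type.

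Cytokine receptors that lack an enzyme of their own carry Janus kinases (JAKs), which phosphorylate STAT proteins when a cytokine binds. Phosphorylated STATs pair, enter the nucleus and switch on target genes, among them Cish, Socs1, Socs2 and Socs3, whose proteins bind receptors or JAKs and shut the signal off. In Treg cells the best known branch is that of interleukin-2 (IL-2) through STAT5, which maintains Foxp3. STAT3 serves IL-6, IL-10, IL-21 and IL-27, STAT4 serves IL-12, and STAT6 serves IL-4. The arrays measure the transcripts of these proteins and not their phosphorylation.

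STAT pairs bind a palindrome, written TTCNNNGAA, and that motif was looked for in the RefSeq promoters of the genes, because the inhibitors are themselves STAT targets. RefSeq (GRCm38.p6) promoters of 250 bases before to 50 bases after a start site were matched for 8 of the 9 genes, with 11 promoters among them. No promoter of Socs2 was available, so Socs2 was not searched. Cish and Socs3 were the genes with a match, 2 in Cish and 1 in Socs3. The following 30-base stretches, on the strand of the gene and with the matches in capitals, show them.
Cish, chr9:107296654-107296683, plus strand, from base -5 to base 25 around the start site: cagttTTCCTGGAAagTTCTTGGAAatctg
Socs3, chr11:117969501-117969530, minus strand, from base -164 to base -135: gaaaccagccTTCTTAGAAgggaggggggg

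The motif reads the same on both strands. It occurred at least 1 time in 8.30% of 32841 promoters of that length and at least 2 times in 0.457%. Neither TTCNNNNGAA, the wider spacing preferred by STAT6 (6.95% of all promoters), nor the FoxO motif GTAAACA (3.65%, searched on both strands) occurred in the 11 promoters. A match of letters is a description and does not show binding.

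None of the 9 genes passed the test between genotypes, and most of them differed little. The signals are MAS5 values, a background-corrected brightness per probe set on a linear scale, and differences were tested on log2(signal + 17) with limma. Of the 22 probe sets, 21 passed the filter on dim signals. Of these 0 had an adjusted p under 0.05 (limma, Benjamini-Hochberg over 27022 probe sets), where 1.16% of all probe sets tested did. At an unadjusted p under 0.05 there were 3, those of Cish, Stat5b and Stat4. With the pair as a block, a fit in which each pair has its own level, 1 of the 21 passed, that of Cish, where 5.13% of all probe sets passed and 2.61% passed as lower. In a fit with 1 probe set a gene, 0 passed. With 2 arrays a group, the smallest p of an exact permutation test is 0.333, so each p leans on the variance that limma shares between probe sets.

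**Figure D1:**
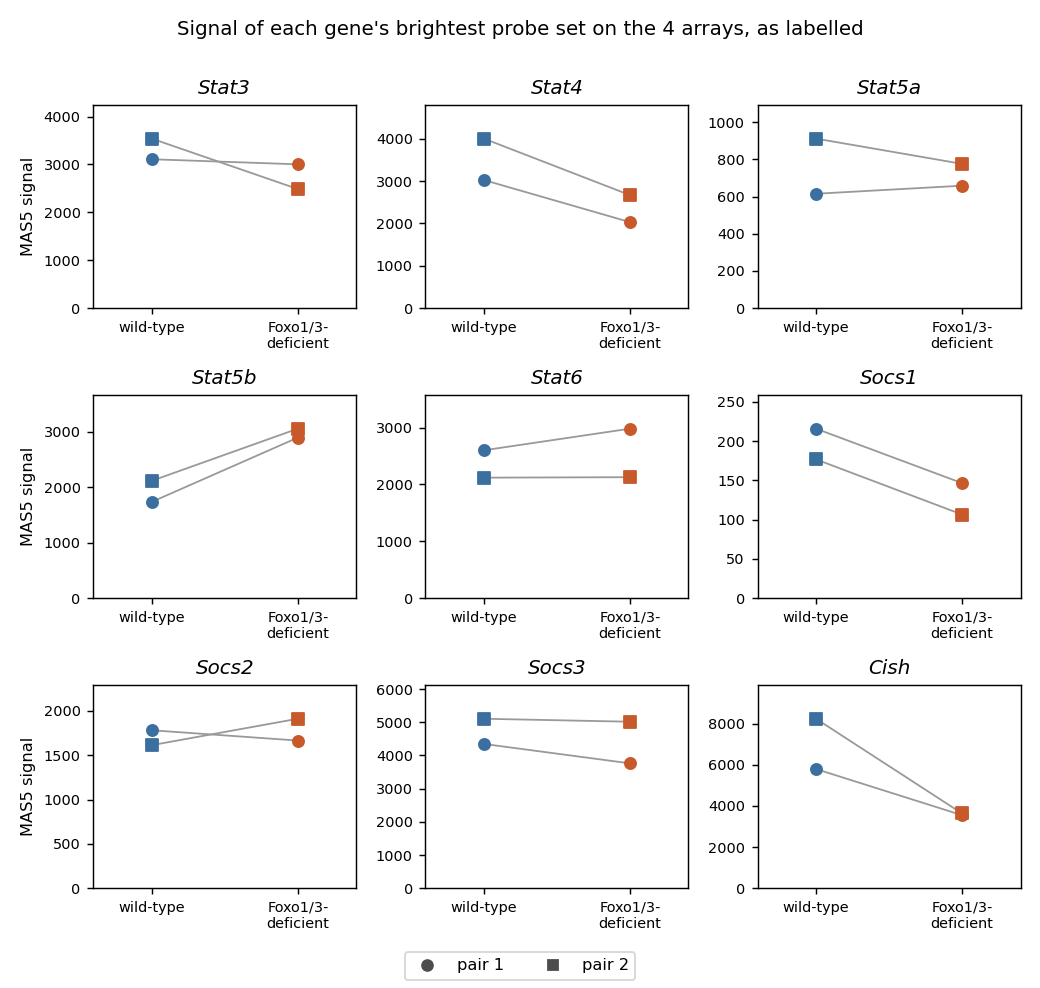
MAS5 signal (linear scale from 0, own range per panel) of the brightest probe set of each of the 9 genes on the wild-type (blue) and labelled-deficient (orange) arrays, with circles for pair 1, squares for pair 2 and a line within each pair. Cish, Stat4, Socs1 and, by a small gap, Stat3 are lower and Stat5b is higher on both labelled-deficient arrays than on both wild-type arrays, while Stat5a, Stat6, Socs2 and Socs3 overlap between genotypes.

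Cish, the inhibitor that IL-2 and STAT5 induce most directly, showed the largest difference of the 9 genes. Its single probe set (1448724_at) read 5795 (pair 1) and 8239 (pair 2) in wild-type cells, and 3551 and 3635 in labelled-deficient cells. Both labelled-deficient arrays thus lay below both wild-type arrays, and the wild-type arrays differed from each other by more than the labelled-deficient ones did. The means were 7017 ± 1728 and 3593 ± 59.6 (SD, n = 2), which is 1.63-fold lower in pair 1 and 2.27-fold lower in pair 2. The log2 difference was -0.94 ± 0.23 (SE, 95% interval -1.47 to -0.41) with an adjusted p of 0.121 by limma over all probe sets, 0.0769 over 1 probe set a gene and 0.0137 with the pair as a block. It also passed when wild-type replicate 1 was left out (log2 -1.19, limma adjusted p = 0.0432), and not when any other single array was left out (adjusted p from 0.288 to 0.375). Cish therefore fell past the threshold only in those 2 settings.

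Socs1, which inhibits JAKs directly and restrains interferon-gamma signalling, read 216 and 177 in wild-type against 147 and 107 in labelled-deficient cells on its single probe set (1450446_a_at). The groups did not overlap, and the ratios within the pairs were close, 1.47-fold lower in pair 1 and 1.66-fold lower in pair 2. The log2 difference of -0.58 ± 0.34 had a 95% interval of -1.36 to 0.20 and missed the threshold (limma adjusted p = 0.670, or 0.446 in the blocked fit). The interval includes both no difference and a fall of more than 2-fold.

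Socs3, the inhibitor induced by STAT3 that blocks the IL-6 receptor chain gp130, was read by 3 probe sets, all with a log2 difference below 0 and none past the threshold. The brightest (1455899_x_at) read 4348 and 5107 in wild-type against 3763 and 5017 in labelled-deficient cells, and the groups overlapped. Its log2 difference was -0.12 ± 0.23 (95% interval -0.64 to 0.40, limma adjusted p = 0.954). Without labelled-deficient replicate 1 that estimate reversed to 0.090. The next (1456212_x_at) read 2669 and 3018 against 2274 and 2419, without overlap, at log2 -0.27 ± 0.22 (limma adjusted p = 0.805). Affymetrix gives the suffix x to probe sets that can also match other transcripts, and 1416576_at, which has no such suffix, stood at log2 -0.17 ± 0.27. Each of the 3 intervals lay within 1 log2 unit of 0, so a change of 2-fold or more in Socs3 fell outside them.

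Socs2, another STAT5-induced inhibitor, best known for restraining growth hormone signalling, had 6 probe sets, and 1 of them (1441476_at, signals from 8.71 to 38.9) fell below the filter. The brightest (1449109_at) read 1782 and 1614 in wild-type against 1666 and 1912 in labelled-deficient cells, a log2 difference of 0.07 ± 0.23 (95% interval -0.46 to 0.60, limma adjusted p = 0.975). Another bright one (1418507_s_at) read 1803 and 1256 against 1889 and 1393, with a log2 difference of 0.11 ± 0.28. Both sets overlapped between genotypes. The other 3 were dim, with signals from 37.8 to 237, and stood between log2 0.21 and 0.38. All 5 tested probe sets of Socs2 lay above 0, and none passed the threshold. When 1 array was left out, 1418507_s_at, 1446085_at and 1449109_at reached log2 -0.15, -0.038 and -0.025. No direction should be read from these sets. Socs2 and Cish are both classed as STAT5 targets, and their values on these arrays are given side by side with no test of the difference between them.

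Stat5b and Stat5a encode the 2 closely related STAT5 proteins, which carry the IL-2 signal. For Stat5b the brightest probe set (1422103_a_at) read 1735 and 2115 in wild-type against 2894 and 3055 in labelled-deficient cells. The groups did not overlap, with ratios of 1.67 in pair 1 and 1.44 in pair 2. The log2 difference was 0.63 ± 0.22 (95% interval 0.11 to 1.15) and missed the threshold (limma adjusted p = 0.323, or 0.0656 in the blocked fit). The other Stat5b probe set (1422102_a_at) read 147 and 172 against 248 and 160, and its groups overlapped (log2 0.30 ± 0.35).

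Stat5a read 615 and 911 in wild-type against 658 and 776 in labelled-deficient cells on its brighter probe set (1421469_a_at). The labelled-deficient values lay between the wild-type ones, and the log2 difference was -0.07 ± 0.29 (95% interval -0.74 to 0.61, limma adjusted p = 0.983). Its dim probe set (1450259_a_at, signals from 51.4 to 92.0) stood at -0.05 ± 0.39. The difference between the Stat5a and Stat5b changes was not tested.

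Stat4, the factor through which IL-12 induces interferon-gamma, read 3027 and 4006 in wild-type against 2032 and 2671 in labelled-deficient cells on its single probe set (1448713_at). The groups did not overlap, and the pairs gave nearly the same genotype ratio, with 0.671 in pair 1 and 0.667 in pair 2. The log2 difference of -0.58 ± 0.25 (95% interval -1.15 to -0.0029) did not pass (limma adjusted p = 0.466, or 0.0813 in the blocked fit).

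Stat3, the factor of IL-6, IL-10 and IL-21 signalling, had 4 probe sets. The brightest (1460700_at) read 3108 and 3539 in wild-type against 3002 and 2486 in labelled-deficient cells. The groups did not overlap, though the higher labelled-deficient array came close to the lower wild-type one, and the log2 difference was -0.28 ± 0.22 (95% interval -0.79 to 0.23, limma adjusted p = 0.809). A set of similar brightness (1426587_a_at) read 2220 and 2084 against 1907 and 1374, at log2 -0.41 ± 0.25 (limma adjusted p = 0.700). The 2 dimmer sets overlapped between genotypes and stood on opposite sides of 0. Set 1459961_a_at read 730 and 446 against 343 and 517 (log2 -0.42 ± 0.35), and 1424272_at read 100.3 and 127 against 120.0 and 126 (log2 0.10 ± 0.34).

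Stat6, the factor of IL-4 signalling, read 2600 and 2119 in wild-type against 2980 and 2127 in labelled-deficient cells on its brightest probe set (1426353_at). The groups overlapped, and the gap between the pairs was wider than that between genotypes. The log2 difference was 0.10 ± 0.25 (95% interval -0.48 to 0.68, limma adjusted p = 0.966). The other set (1421708_a_at) read 429 and 299 against 471 and 360 (log2 0.19 ± 0.32).

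**Figure D2:**
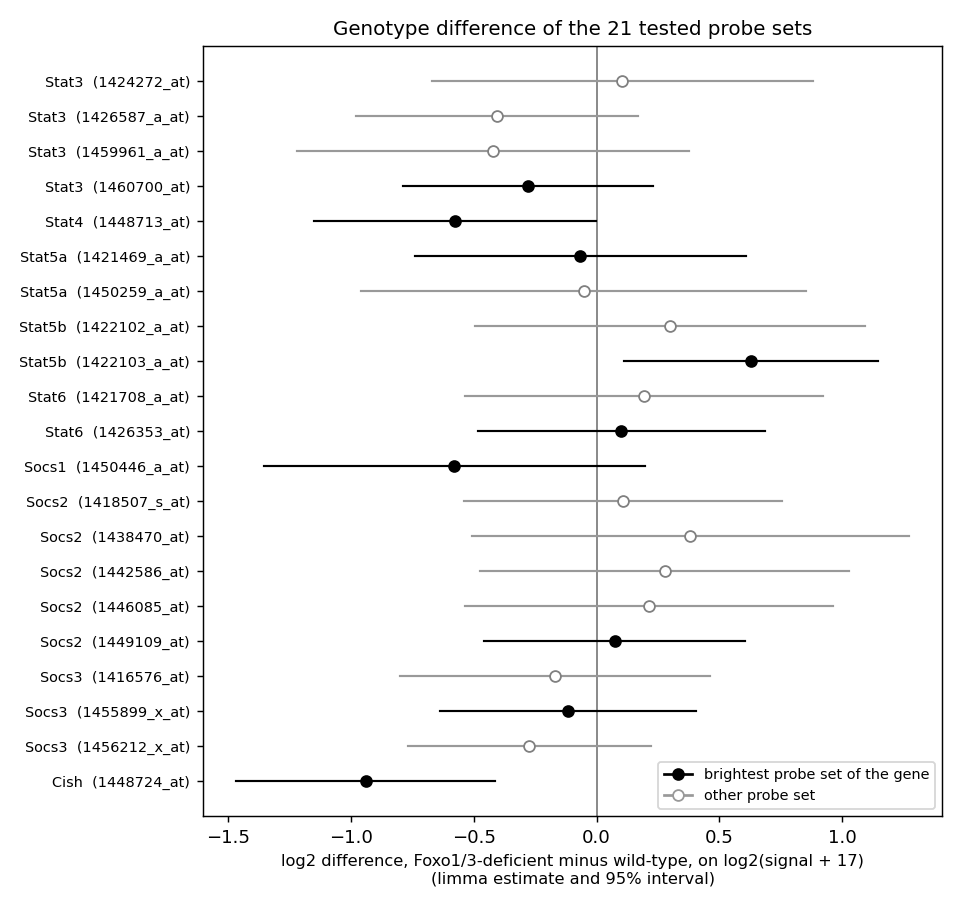
Log2 difference of labelled-deficient minus wild-type on log2(signal + 17) for the 21 tested probe sets (x axis), with the limma estimate as a point and its 95% interval as a line; filled points are the brightest probe set of a gene. The interval lies clear of 0 for Cish (-1.47 to -0.41) and Stat5b (0.11 to 1.15), ends just below 0 for Stat4, and crosses 0 for the other 18 probe sets.

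Over the family, differences ran from log2 -0.94 to 0.63 across the 21 tested probe sets, and 14 of them were smaller than 0.3 in size. Both labelled-deficient arrays lay above both wild-type arrays for 3 probe sets and below for 6. These 9 of 21 compare with 38.3% of all probe sets tested. Read from 1 probe set a gene, the groups did not overlap for 5 of 9 genes, against 41.1% of all 12115 genes. The median log2 difference was -0.12 over the 9 genes and -0.0034 over all genes. It was -0.07 over the 5 STAT genes and -0.35 over the 4 SOCS family genes.

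Between the pairs, 13 of the 21 probe sets differed in the same direction and 8 in opposite directions. No probe set differed 2-fold or more in both pairs, and 2 did so in 1 pair, those of Cish in pair 2 and the Stat3 set 1459961_a_at in pair 1. Arrays of 1 genotype differed between the pairs by ratios of 0.559 to 1.51 over the 21 sets, and by 0.714 to 1.48 over the brightest sets. The genotype ratios of Cish (0.613 and 0.441), Stat4 (0.671 and 0.667) and Socs1 (0.679 and 0.603) lay below 0.714 in both pairs. The order of the pairs in the ratios within a genotype is arbitrary, so 1.48 bounds a fall as well. By that bound Socs1 in pair 1 (1.47-fold lower) fell within the spread. Stat4 (1.49-fold lower in pair 1) lay only just beyond it. Of these genotype ratios, that of Cish in pair 2 also lay below 0.559.

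**Figure D3:**
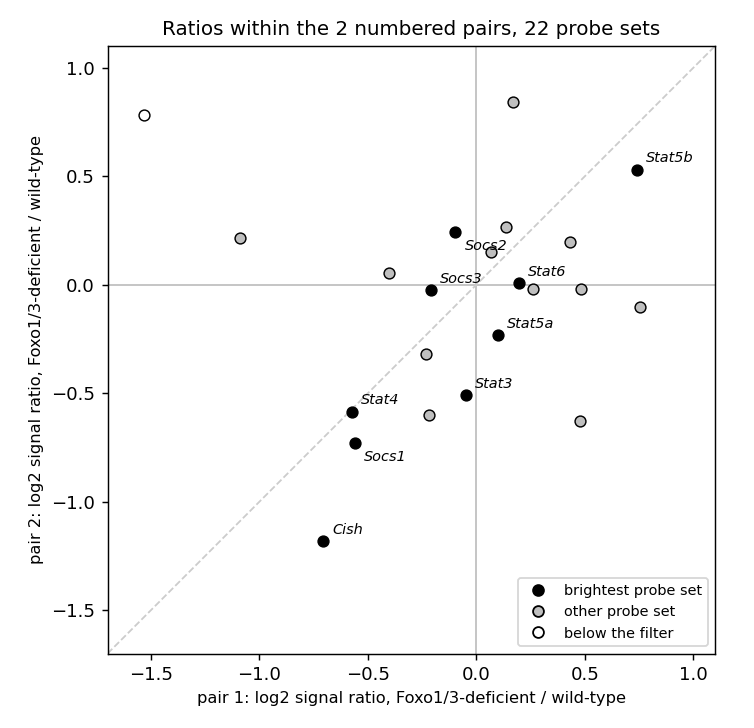
Log2 ratio of labelled-deficient to wild-type signal within pair 1 (x axis) and pair 2 (y axis) for all 22 probe sets, with the brightest set of each gene in black and named, other sets in grey and the set under the filter in white; the dashed line marks equal ratios. Cish, Socs1 and Stat4 lie low in both pairs and Stat5b high in both, while Stat5a and Socs2 change direction between the pairs.

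The rest of the pathway was read from 10 lists of receptors, kinases, cytokines, inhibitors and target genes, in which 101 distinct genes had a probe set and 88 passed the filter. In all 3 of the 88 rose and 4 fell, where 0.801% of all 12115 genes rose and 0.883% fell in the same fit. In the fit with each pair as its own block, 6 rose and 19 fell, against 2.99% and 3.93% of all genes. Of the genes in the lists, 6 stand in more than 1 list and are counted in each below.

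Among the kinases and other signal carriers 0 of 6 passed, and the median log2 difference was -0.46. Jak1, which serves nearly all of these receptors, read 4380 and 5346 in wild-type against 6977 and 6895 in labelled-deficient cells (log2 0.52 ± 0.20, limma adjusted p = 0.380). Jak2, the kinase of the IL-12 and interferon-gamma receptors, went the other way, with 7209 and 7231 against 3668 and 4883. Its log2 difference of -0.77 ± 0.21 gave a limma adjusted p of 0.175, and it fell only with the pair as a block (0.0306). Tyk2, its partner at the IL-12 receptor, read 1649 and 1584 against 937 and 1245 (log2 -0.57 ± 0.25, limma adjusted p = 0.477). The other tested probe set of Tyk2 stood at log2 -0.19. Jak3 and Stat2 overlapped between genotypes, at log2 -0.71 ± 0.42 and -0.34 ± 0.39.

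Among 24 tested cytokine receptor genes there were 2 that rose and 1 that fell, and the list's median was 0.10 on the log2 scale. Il6st, which encodes gp130, the chain that STAT3 and Socs3 bind, rose from 1673 and 1179 to 3654 and 3770 (log2 1.39 ± 0.25, limma adjusted p = 0.0454). Il6ra, the other chain of the IL-6 receptor, read 300 and 156 against 2506 and 803, which is 2.62 ± 0.53 on the log2 scale (limma adjusted p = 0.0665) and rose with the pair as a block (0.000386). It also passed in the fit with 1 probe set a gene (0.0495), and on leaving out wild-type replicate 1 (0.0134) or labelled-deficient replicate 2 (0.00369). Its other probe set stood at log2 0.38. Il7r, the IL-7 receptor, which signals through STAT5, rose from 4362 and 3571 to 8566 and 11045 (log2 1.30 ± 0.22, limma adjusted p = 0.0386).

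Il12rb1, the shared chain of the receptors for IL-12 and IL-23, fell from 2519 and 1923 to 382 and 370 (log2 -2.50 ± 0.26, limma adjusted p = 0.00736). The IL-2 receptor genes measured here did not pass. Il2ra read 2449 and 3584 against 4416 and 3962 (log2 0.50 ± 0.25, limma adjusted p = 0.567). Il2rb read 1711 and 1986 against 2110 and 1447, with overlap (log2 -0.08 ± 0.26). The Il6st call was lost on leaving out labelled-deficient replicate 1 (limma adjusted p = 0.130), labelled-deficient replicate 2 (0.129) or wild-type replicate 2 (0.105). The same was true of Il7r (0.0513, 0.157 and 0.0631). Both calls were also lost when each array was scaled to the same median (0.0707 for Il6st and 0.0909 for Il7r). The other probe set of Il7r stood at log2 1.89 and the other 2 of Il6st at 0.84 and 2.37. Crlf2, the TSLP receptor, fell only with the pair as a block (log2 -0.91, limma adjusted p = 0.0133).

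Among cytokines that activate STATs, 2 of the 10 tested genes fell and none of them rose. The median of the 10 was -1.03 on the log2 scale. That median includes Csf2 and Il21, whose limits are given below. Ifng, the interferon-gamma gene and a target of STAT4, fell from 1382 and 2738 to 254 and 298 (log2 -2.75 ± 0.35, limma adjusted p = 0.0135). Csf2, which encodes GM-CSF and signals through STAT5, fell from 149 and 165 to 9.55 and 5.61 (log2 -2.83 ± 0.38, limma adjusted p = 0.0152). Both of its labelled-deficient signals lie below the filter's signal of 40.5, so it was tested only through its wild-type level, and it drops under the filter when either wild-type array is left out. It is 1 of the 4 falls counted above. Il21, which encodes a cytokine that signals through STAT3 and is itself a STAT3 target, read 237 and 312 against 8.23 and 80.5. Ebi3, which encodes a subunit of IL-27 and IL-35, read 1806 and 1521 against 676 and 729. Both fell with the pair as a block (limma adjusted p = 0.00886 and 0.00604) and missed the threshold in the unblocked fit (0.107 and 0.0676). The labelled-deficient signal of Il21 in pair 1 (8.23) lies below the filter's signal of 40.5, so Il21 was tested largely through its wild-type level. Csf2 and Il21 are also among the 19 falls counted above in the blocked fit. Il21 also passed without labelled-deficient replicate 2 (limma adjusted p = 0.00408), and Ebi3 in the fit with 1 probe set a gene (0.0411).

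Other inhibitors of JAK and STAT signalling showed 0 of 16 past the threshold and a median log2 difference of -0.06. Socs5, a SOCS gene outside the 9, read 897 and 941 in wild-type against 1858 and 1524 in labelled-deficient cells (log2 0.86 ± 0.24), and it rose only with the pair as a block (limma adjusted p = 0.0285, against 0.185 without it). Of the partners that join SOCS proteins to a ubiquitin ligase (Eloc, Elob, Cul5 and Rnf7), 0 of 4 passed, with a median of -0.09.

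Target genes were grouped by the STAT that is best known to induce them. For STAT5, 1 of 11 targets rose and none of the 11 fell. Their median was 0.05 on the log2 scale. Bcl2, the survival gene that rose, read 1342 and 905 in wild-type against 3364 and 6735 in labelled-deficient cells (log2 2.09 ± 0.35, limma adjusted p = 0.0391). The call was lost on leaving out wild-type replicate 2 (limma adjusted p = 0.0511) or labelled-deficient replicate 2 (0.0769), or on scaling each array to the same median (0.0678). Its 4 other tested probe sets stood between log2 1.42 and 2.40. With the pair as a block Myc also rose and Ccnd3, which encodes a G1 cyclin, fell (limma adjusted p = 0.0148 and 0.0328). The Ccnd3 probe sets disagreed, with another at log2 1.07. Foxp3, a STAT5 target that marks Treg cells, read 6540 and 6285 against 6504 and 6056. The log2 differences of the STAT5 targets lay above 0 for 6 and below 0 for 5.

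For STAT4, 2 of 4 targets fell and none of the 4 rose. Their median was -1.80 on the log2 scale. Besides Ifng, Il18rap, a chain of the IL-18 receptor, fell from 2952 and 3121 to 565 and 661 (log2 -2.28 ± 0.24, limma adjusted p = 0.00730). Il18r1, the other chain, read 4847 and 9975 against 2220 and 3491, and fell with the pair as a block (limma adjusted p = 0.00205, against 0.168 unblocked) and without wild-type replicate 1 (0.0113). The groups did not overlap for 3 of the 4, all of them lower on the labelled-deficient arrays. Among all genes 41.1% did not overlap, a share that sums both directions. Il12rb2 and Hlx, also in this list, fell below the filter and were not tested, and both overlapped between genotypes.

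Of 7 STAT3 targets tested, 0 passed, with a median log2 difference of -0.85 against -0.0034 over all genes. All 7 estimates lay below 0. Fos (log2 -0.27 ± 0.39) and Junb (-0.29 ± 0.73) overlapped between genotypes and changed direction between the pairs. With the pair as a block 4 fell, where 3.93% of all genes did: Il21, Bcl3, Maf and Rora (limma adjusted p = 0.00886, 0.00215, 0.0138 and 0.0128). For Il21 the limit given above for its low signal holds here too. Maf, a transcription factor that promotes IL-10, read 13660 and 12488 in wild-type against 7260 and 7178 in labelled-deficient cells (log2 -0.85 ± 0.18, limma adjusted p = 0.0729, and 0.0442 in the fit with 1 probe set a gene). Its other 4 probe sets stood between -1.13 and -0.98.

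Genes that interferon induces through STAT factors also gave 0 of 7 past the threshold, with all 7 below 0 and a median of -0.83. With the pair as a block 5 fell: Irf8, Tap1, Irf1, Cxcl10 and Psmb9 (limma adjusted p = 0.00458, 0.00894, 0.0157, 0.0251 and 0.0373). Irf8 read 4620 and 4252 against 1497 and 2180 (log2 -1.29 ± 0.25, limma adjusted p = 0.0591). It also passed in the fit with 1 probe set a gene (0.0380) and without labelled-deficient replicate 2 (0.0410). Irf1 read 11030 and 10528 against 5949 and 6198 (log2 -0.83 ± 0.18). Of 4 STAT6 targets 0 passed, with a median of -0.20, and in the blocked fit 1 fell, Gfi1 (limma adjusted p = 0.0298).

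**Figure D4:**
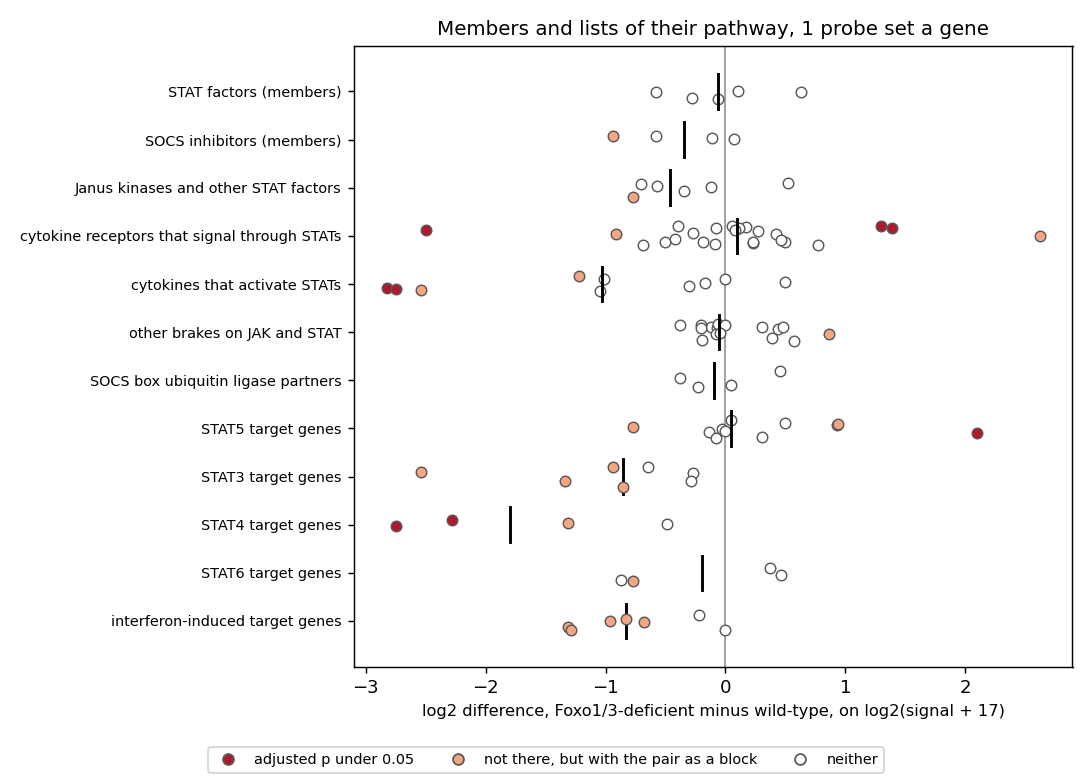
Log2 difference of labelled-deficient minus wild-type on log2(signal + 17) (x axis) for the 9 genes and the tested genes of each pathway list (rows), 1 point a gene, with a black bar at the median. Dark red points passed the threshold, light red points missed it there and passed with the pair as a block, and white points passed in neither fit. The dark points left of -2 are Csf2, Ifng (which stands in 2 lists), Il12rb1 and Il18rap, and none of the 9 genes is dark.

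Several markers of the cells in the RNA were measured beside these results. Treg and T cell markers summed to 45709 and 50976 in wild-type against 46176 and 48495 in labelled-deficient cells, with 0 of 7 past the threshold. B cell markers summed to 2443 and 841 against 2851 and 1849, with 0 of 4 tested past it and 1 higher with the pair as a block, Ms4a1 (log2 0.89, limma adjusted p = 0.0456). All 4 tested (Cd79a, Cd79b, Ms4a1 and Blk) overlapped between genotypes. Cd79a and Cd79b were lower in pair 1 (ratios 0.826 and 0.834) and higher in pair 2 (2.65 and 1.90). Macrophage and monocyte markers summed to 8851 and 5213 against 11159 and 8956, with 0 of 7 past it and 1 higher in the blocked fit, Adgre1 (log2 1.03, limma adjusted p = 0.0152). Csf1r alone read 4749 and 2987 against 6676 and 5165 and was the largest part of each sum. Of the 7, 6 lay above 0 and 1 below, Lyz2 (log2 -0.14). Cd68, Lyz2, Cd14, Tyrobp and Fcer1g overlapped between genotypes. Natural killer cell markers summed to 1214 and 1548 against 474 and 407, where Eomes, which cytotoxic T cells also express, fell (1 of 2 tested), and the defining markers Ncr1 and Klra8 stayed below the filter. Neutrophil markers summed to 945 and 803 against 367 and 341, with 0 of 3 past it and 1 lower in the blocked fit, Mmp9 (log2 -2.14, limma adjusted p = 0.0140). Mmp9 alone read 515 and 632 against 47.4 and 259 and made up most of the drop in that sum. The other neutrophil markers, S100a8, S100a9, Cxcr2 and Ngp, overlapped between genotypes. The part of these cells in the differences above was not tested. In RNA from a cell population, fewer cells of a type and less RNA per cell cannot be told apart.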

How the data were processed

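The authors deposited 1 linear intensity per probe set and array, and the submitters' processing notes name MAS5, with the version not given in the sources used here. All 4 arrays shared a trimmed mean signal of 500.003, so no scaling was added. Probe sets were named by the platform annotation, which can be old, updated through gene IDs to RefSeq symbols of GRCm38.p6. Of 45101 probe sets, 64 controls were dropped, 34945 had 1 symbol, 932 several and 9160 none. No probe set of the 9 genes carried several symbols. Of 108 genes in the pathway lists, 7 had no probe set of their own and were not analysed here.

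Signals were tested as log2(signal + 17), 17 being the rounded 25th percentile of all values. A fold change on this scale understates that of dim genes. Probe sets with a mean log2 value under the 40th percentile (a signal of 40.5) were left out, which left 27022. Each was tested two-sided in limma (version 3.58.1, under R 4.3.3) by lmFit and trended eBayes. P-values were adjusted by Benjamini-Hochberg and called under 0.05. The fit had 2 residual degrees of freedom and 6.17 added by the shared variance. The script was tested on simulated data. A gene was read from its brightest probe set, by mean log2 value. No depth applies to arrays, and their number limits the precision.

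The titles number the pairs, which is where the pairing comes from. Deviations from the group means correlated between same-numbered arrays with r = 0.367 across 12115 genes, which are not independent replicates. The fit that blocks on pair has 1 residual degree of freedom. Its value is printed where it changes a call of a gene described here.

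The genes, the lists and the tests were chosen with earlier results of these data known. All probe sets of the 9 genes are given. From each list, the genes past the threshold are named (up to the 10 with the largest difference), with the Janus kinases, Stat2, Il2ra, Il2rb, Il7r and Il6st. Genes called with the block and marker genes were named after their values were seen. The genes of most similar profile were to be given for members past the threshold, and there were none. The 13 alternatives are in the closing section.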

Additional observations from a re-analysis of the deposited data

How the results depend on the processing

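Over 13 alternatives, 0 of the 9 genes rose in any. Cish fell in 2, so the count of falls was 1 with the replicate block and ran from 0 to 1 when 1 array was left out. Its log2 difference ran from -1.19 to -0.69. The 21 tested probe sets gave 257 values, of which 242 kept direction and call. The 13 that reversed came from leaving out 1 array, all in probe sets near 0. Those leave-one-out ranges were -0.046 to 0.25 for Stat3 1424272_at, -0.34 to 0.21 and -0.39 to 0.28 for the 2 Stat5a sets, -0.056 to 0.44 and -0.14 to 0.34 for the 2 Stat6 sets, -0.15 to 0.37, -0.038 to 0.46 and -0.025 to 0.17 for Socs2 1418507_s_at, 1446085_at and 1449109_at, and -0.32 to 0.090 for Socs3 1455899_x_at. No direction should be read from these sets.

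Over all probe sets, 171 were higher and 143 lower. These counts became 38 and 29 without the filter, 47 and 51 without the intensity trend, 682 and 705 with the replicate block, and 93 to 344 and 90 to 159 when 1 array was left out. Of the runs that left out 1 array, the lowest counts came without Foxo1/3-deficient replicate 1 (93 and 90) and the highest count of higher sets without wild-type replicate 1 (344). The cause was not tested. Of the other named genes, Stat2 ran from -0.83 to 0.15 and Il2rb from -0.35 to 0.19 when 1 array was left out. Foxo1, Il7r, Il6st, Ifng and Bcl2 missed the threshold both without the filter and without the trend, and Csf2 without the filter (0.0901). Scaling each array to the same median ended all 3 rises of the pathway lists, Il7r (0.0909), Il6st (0.0707) and Bcl2 (0.0678), and a pseudocount of 1 that of Il6st (0.0523). No value exists for Csf2 without either wild-type array, with a pseudocount of 1 or with the stricter filter, where it fell under the filter. Signal over background limits the dim sets, since detection calls were not analysed here.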
